A study of Mus musculus with 5 samples.

Results

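Interferon-stimulated genes are genes whose transcription rises when interferon reaches a cell, and 38 of them were followed here in Akt/Notch liver tumours with and without late Prox1 overexpression (Prox1 OE). They were taken as a list of gene names, and each name was found once among the 55397 genes of the table. All 38 were among the 17105 genes that entered the test, for which the normalised counts had to average 10 or more over the 5 libraries. The lowest of their values was 67 reads in a library, so that every member would have passed the filter on either group alone.

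Interferons are secreted proteins that bind receptors at the cell surface and activate the kinases JAK1, TYK2 and JAK2. Type I and type III interferons assemble a complex holding STAT2 and IRF9 that binds the interferon-stimulated response element (ISRE), whereas interferon gamma acts through the gamma-activated site (GAS). The genes switched on by these factors sense viral nucleic acid, block viral replication, attach the ubiquitin-like protein ISG15 to other proteins, or form the guanylate-binding and immunity-related GTPases that attack vacuoles holding pathogens. In the liver, hepatocytes, Kupffer cells and infiltrating leukocytes can all respond.

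The tumours came from 8-week-old female C57BL/6N mice that had received plasmids by hydrodynamic tail vein injection, a rapid injection of a large volume that brings DNA into hepatocytes. Both groups received Sleeping Beauty transposase behind a CMV promoter and, behind the EF1a promoter, Akt and the NOTCH intracellular domain with the doxycycline-dependent activator rtTA (NICD-IRES-rtTA), which together drive nodules with features of cholangiocarcinoma (CCA), a cancer of bile duct type. Mice of the Prox1 OE group (3 libraries) also received FLAG-tagged mouse Prox1 with GFP behind a doxycycline-responsive Tre promoter, and those of the Control group (2 libraries) the same plasmid with GFP and no Prox1. Per the labels, a diet with 6.25% doxycycline hyclate from day 21 drove Prox1 from week 3 to 4, and tumours were collected after that week or at a humane endpoint, without a record of which applied to which tumour. The transposons enter only hepatocytes that took up DNA, while the RNA was that of a whole dissected nodule, and the labels name the cells transformed hepatocytes. The labels do not say that each library was a separate mouse, so that the p-values measure the spread between these libraries only.

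Libraries held 48740863 to 56629477 reads. Prox1 itself had 4153 and 4664 normalised counts in Control replicates 1 and 2 and 48090, 11113 and 8231 in Prox1 OE replicates 1, 2 and 3. All Prox1 OE libraries were above both Control libraries, by widely differing amounts. A normalised count is the number of reads of a gene divided by a scaling factor of its library, and 1 read was worth 0.822 to 1.18 normalised counts. Hepatocyte markers such as Alb were abundant in every library, and so were the cholangiocyte marker Spp1 and the fibroblast marker Col1a1.

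The first question was whether the interferon-stimulated genes differed between Prox1 OE and Control tumours. Of the 38 genes, 15 were higher in Prox1 OE at an adjusted p under 0.05 in limma, with Benjamini-Hochberg adjustment over all genes tested, and 0 were lower. Among all 17105 genes, 17.1% were called higher and 16.2% lower. At an unadjusted p under 0.05 the genes numbered 21, all with a positive change, while 22.8% of all genes passed that limit with a positive and 22.9% with a negative change. In 23 of the 38, every Prox1 OE value lay above both Control values, as it did for 30.9% of all genes, and in 0 every Prox1 OE value lay below, against 32.4% of all genes. The remaining 15 overlapped between the groups.

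The sizes were modest. The log2 fold changes ran from -0.28 for Eif2ak2 to 1.26 for Bst2 with a median of 0.49, beside a median of -0.02 over all genes tested, and 34 of the 38 were positive. Only 4 reached 1 or more, namely Bst2, Iigp1, Irf7 and Mx2. The 15 called genes had ratios of group means between 1.40 and 2.45. The number called higher depended on the library left out. It was 19 without Prox1 OE replicate 1, when 21.9% of all genes were called higher, and 8 without replicate 2 or without replicate 3, when 12.5% and 12.7% were. With 1 Control library left it was 0 without Control replicate 1 and 3 without Control replicate 2, beside 3.98% and 8.40% of all genes, so that neither count stood above the share of all genes. Scaling by the total count of each library lowered the median of all genes to -0.44 and left 4 of the 38 higher (Irf7, Bst2, Igtp and Iigp1) and 3 lower (Eif2ak2, Ifit2 and Parp14), while 8.62% of all genes were called higher and 39.9% lower. Measured from the median of all genes, the genes' own median was 0.50 under that scaling and under the deposited one. This distance could hardly differ, because 1 factor per library moves all genes nearly alike, so it is no check of either scaling.

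**Figure D1:**
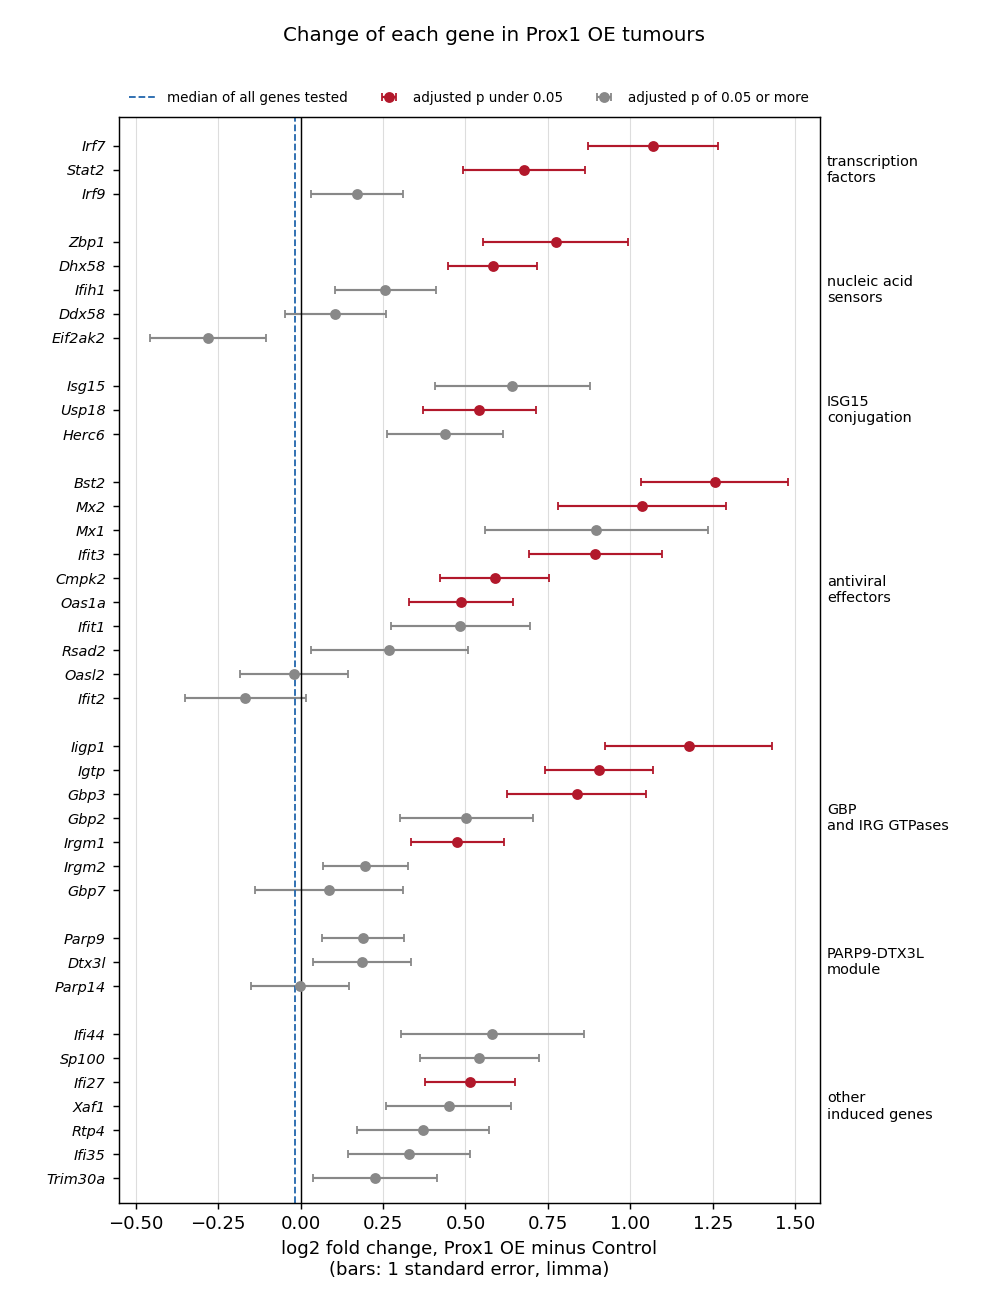
Log2 fold change of each of the 38 genes, Prox1 OE minus Control, on the horizontal axis, with 1 standard error of the limma fit as bars and genes ordered by size within each role. The 15 red points have an adjusted p under 0.05 and all lie to the right of the dashed median of all genes; with libraries scaled by total count, 4 genes stay higher and 3 become lower.

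Regulatory sequence was read from reference promoter windows of 300 bases, 250 before and 50 after the annotated start of transcription (RefSeq, build GRCm38.p6). Of the 38 genes, 28 had a window, some with several, and no window was given for Usp18, Mx1, Mx2, Parp9, Parp14, Rtp4, Zbp1, Ifi27, Dhx58 and Iigp1. The ISRE was searched on both strands as GAAANNGAAA. It was present in 17 of the 28 genes (60.7%), against 3.99% of the 27025 genes with a window. The shorter core bound by interferon regulatory factors, AANNGAAA, is contained in every ISRE match and was present in 22 of the 28 (78.6%, against 26.7% of all genes). The GAS, searched as TTCNNNGAA, was present in 8 of the 28 (28.6%, against 9.55%), and its stricter form TTCCNGGAA in 4 (14.3%, against 1.35%), namely Bst2, Gbp7, Ifit2 and Irgm2.

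**Figure D2:**
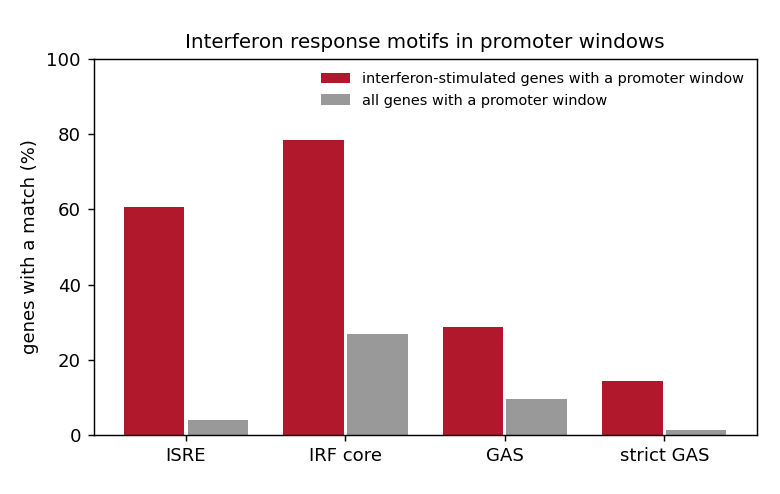
Percent of genes with at least 1 match to each motif in a promoter window, for the 28 interferon-stimulated genes with a window (red) and for all 27025 genes with a window (grey). For the ISRE the bars stand at 60.7% and 3.99%, and a match describes letters in the window, not measured binding.

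The stretches around the ISRE are shown first for genes that were higher in Prox1 OE, Bst2, Ifit3, Igtp, Oas1a and Stat2, and then for Isg15, Irgm2 and Gbp7, which carry the same motif and were not called. They are written 5′ to 3′ on the strand of the gene with the ISRE in capitals, in the reverse complement where it lies on the other strand.
Bst2: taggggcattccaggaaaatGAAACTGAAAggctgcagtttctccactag
Ifit3: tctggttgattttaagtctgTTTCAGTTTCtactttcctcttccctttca
Igtp: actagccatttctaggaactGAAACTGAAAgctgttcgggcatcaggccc
Oas1a: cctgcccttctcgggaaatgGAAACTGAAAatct
Stat2: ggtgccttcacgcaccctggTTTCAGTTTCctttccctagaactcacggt
Isg15: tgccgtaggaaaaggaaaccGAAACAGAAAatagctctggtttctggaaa
Irgm2: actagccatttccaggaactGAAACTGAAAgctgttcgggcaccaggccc
Gbp7: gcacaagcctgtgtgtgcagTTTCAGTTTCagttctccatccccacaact
The stretches lie on GRCm38.p6 at chr8:71537567-71537616 (Bst2, minus strand), chr19:34583387-34583436 (Ifit3, plus), chr11:58199502-58199551 (Igtp, plus), chr5:120907526-120907559 (Oas1a, minus), chr10:128270256-128270305 (Stat2, plus), chr4:156200855-156200904 (Isg15, minus), chr11:58214893-58214942 (Irgm2, plus) and chr3:142530263-142530312 (Gbp7, plus). None of them overlapped an annotated exon of its own gene, and the Irgm2 stretch lies in an intron of a longer transcript of Irgm2. Exons of other genes were not checked. The stretches of Gbp2, Gbp3 and Irgm1, which are not shown, overlapped exons of their genes by 32, 9 and 44 bases. In Bst2 the capitals are preceded by a strict GAS and by another ISRE match that overlaps them.

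Called genes were found with and without the motif. Of the 17 genes with an ISRE match, 7 were called higher and the median log2 fold change was 0.48. Of the 11 genes with a window and no match, 2 were called and the median was 0.44. Among all genes tested 17.1% were called higher, which is near the share of the genes without a match. The Igtp and Irgm2 stretches shown above are identical at 48 of 50 bases, and both genes also held a GAS. Their log2 fold changes were 0.91 ± 0.16 (SE, adjusted p in limma 0.0068) for Igtp and 0.20 ± 0.13 (SE, adjusted p in limma 0.28) for Irgm2, a difference between genes that was not tested.

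The transcription factors of the response came to 3 genes, of which 2 were higher in Prox1 OE, beside 17.1% of all genes. Irf7 (ENSMUSG00000025498, chr7:141262706-141266481, minus strand) encodes the factor that amplifies type I interferon production. It had 1701 and 2102 normalised counts in Control replicates 1 and 2 and 3308, 3713 and 5097 in Prox1 OE replicates 1, 2 and 3. All Prox1 OE values were above both Control values, with a log2 fold change of 1.07 ± 0.20 (SE, adjusted p in limma 0.0075). Stat2 (ENSMUSG00000040033, chr10:128270559-128292849, plus strand), the partner of IRF9 at the ISRE, had 2145 and 2179 in Control and 2757, 3469 and 4324 in Prox1 OE. The groups were apart and the Control libraries nearly equal, and the log2 fold change was 0.68 ± 0.18 (SE, adjusted p in limma 0.028). Irf9, which supplies DNA binding to the same complex, had 1948 and 1906 in Control and 1897, 2165 and 2486 in Prox1 OE. Prox1 OE replicate 1 lay below both Control libraries, and the log2 fold change was 0.17 ± 0.14 (SE, adjusted p in limma 0.37). Reads of Irf9 and Rnf31, which share 123 exonic bases on the same strand, could have been split between them.

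**Figure D3:**
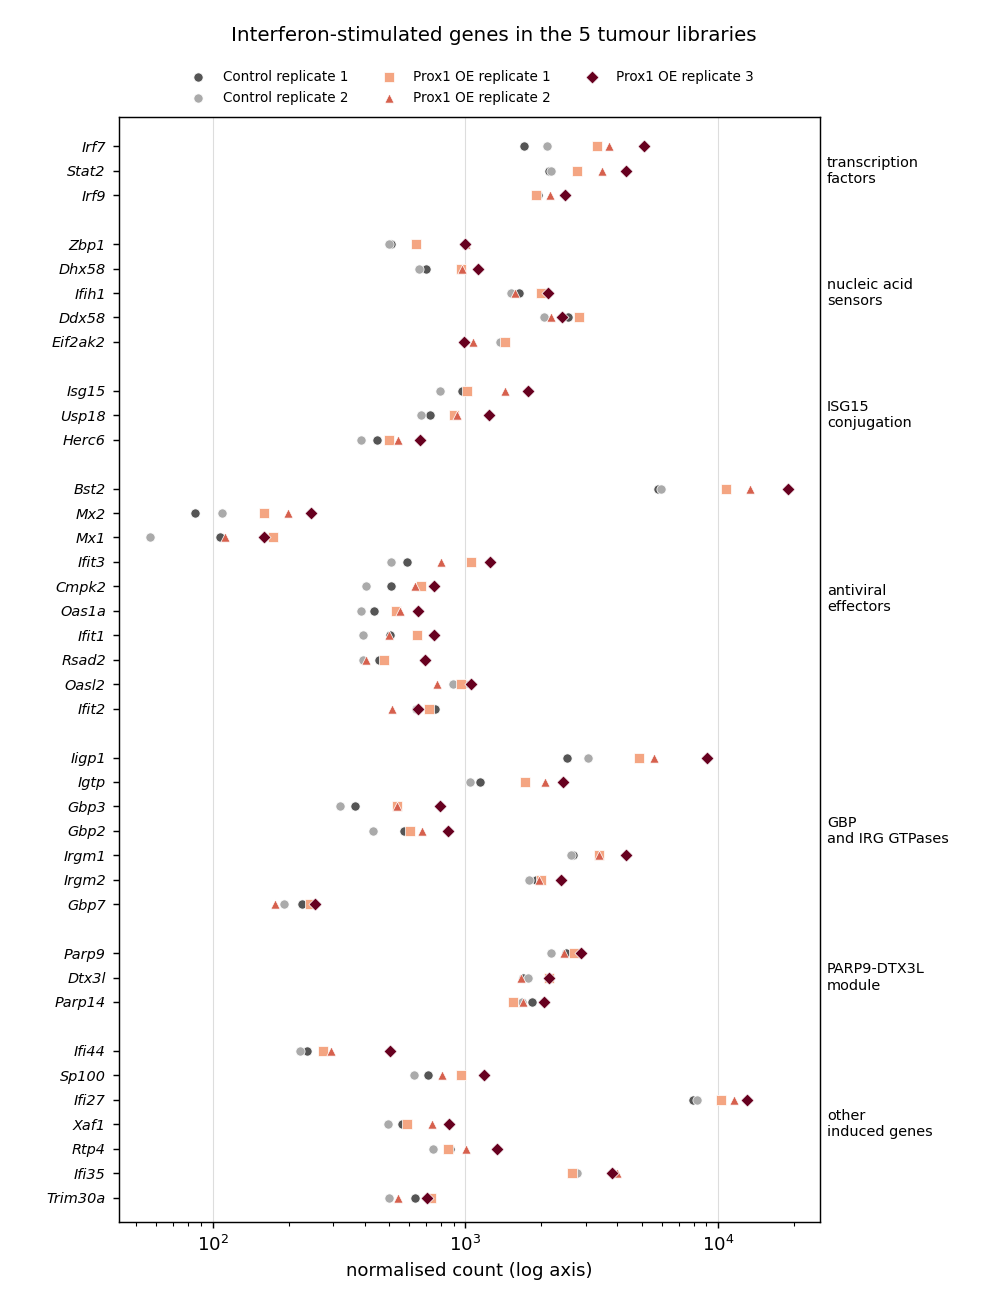
Normalised count of each of the 38 genes in each of the 5 libraries (log axis), ordered by role and by log2 fold change within a role. In 23 genes the 3 Prox1 OE points all lie to the right of both grey Control points, and Prox1 OE replicate 3 is the highest Prox1 OE library in 30 genes.

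Of the 5 nucleic acid sensors, Zbp1 and Dhx58 were higher, beside 17.1% of all genes. Zbp1, a sensor of Z-form nucleic acid that can trigger necroptosis, had 507 and 500.1 normalised counts in Control and 636, 1003 and 1001 in Prox1 OE replicates 1, 2 and 3. Replicate 1 was the lowest of the Prox1 OE libraries, still above both Control libraries, and the log2 fold change was 0.77 ± 0.22 (SE, adjusted p in limma 0.032). Dhx58, which encodes LGP2, a regulator of the RNA helicases RIG-I and MDA5, had 699.98 and 656 in Control and 961, 971 and 1120.3 in Prox1 OE. Its Prox1 OE values were close together and apart from Control, with a log2 fold change of 0.58 ± 0.13 (SE, adjusted p in limma 0.016). The helicase genes themselves overlapped between the groups, with 0.26 (adjusted p in limma 0.23) for Ifih1, which encodes MDA5, and 0.11 (adjusted p in limma 0.63) for Ddx58, which encodes RIG-I. Eif2ak2, the gene of the RNA-activated kinase PKR, had the most negative value of the 38, -0.28 (adjusted p in limma 0.25), and its groups overlapped. Without Prox1 OE replicate 1, it was called lower, with a log2 fold change of -0.44 (adjusted p in limma 0.021).

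Each of the 3 genes of ISG15 conjugation had every Prox1 OE value above both Control values, beside 30.9% of all genes, and 1 passed the test. Usp18, which removes ISG15 from proteins and damps the type I receptor, had 725 and 669.6 normalised counts in Control and 906, 926 and 1243 in Prox1 OE. Its log2 fold change was 0.54 ± 0.17 (SE, adjusted p in limma 0.046). Isg15 (ENSMUSG00000035692, chr4:156199424-156200818, minus strand), the modifier itself, had 974 and 791 in Control and 1011, 1432 and 1775 in Prox1 OE. Prox1 OE replicate 1 was only just above Control replicate 1, and the log2 fold change of 0.64 ± 0.24 (SE, adjusted p in limma 0.072) did not pass. With 1 library left out in turn the log2 fold change ran from 0.46 to 0.86. Among those fits Isg15 passed only without Prox1 OE replicate 1 (0.86, adjusted p in limma 0.010). Over all 16 alternative fits it passed in 2, also with DESeq2 on recovered reads (0.68, adjusted p in DESeq2 0.028). For Herc6, a ligase that attaches ISG15, the value was 0.44 (adjusted p in limma 0.093).

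The antiviral effectors were the largest set, with 5 of 10 higher and 6 of 10 not overlapping, beside 17.1% and 30.9% of all genes. Bst2 (ENSMUSG00000046718, chr8:71534255-71537456, minus strand) encodes tetherin, which holds budding virions at the cell surface, and it had the largest change of the 38. Its values were 5781 and 5934 normalised counts in Control and 10759.7, 13430.5 and 18938 in Prox1 OE. The lowest Prox1 OE library was 1.81 times the highest Control library. The mean was 5857 ± 108 (SD, n = 2) in Control and 14376 ± 4170.1 (SD, n = 3) in Prox1 OE, and the log2 fold change was 1.26 ± 0.22 (SE, adjusted p in limma 0.0066).

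Ifit3, which helps IFIT1 to bind viral RNA, had 589.9 and 509 normalised counts in Control and 1052, 801 and 1253 in Prox1 OE, where replicate 2 was the lowest and still above Control. Its log2 fold change was 0.89 ± 0.20 (SE, adjusted p in limma 0.015). Reads of Ifit3 and its close copy Ifit3b could have been divided between them, and Ifit3b was 1.05 (adjusted p in limma 0.038). Cmpk2, a mitochondrial nucleotide kinase that neighbours Rsad2, had 509 and 403 in Control and 666, 632 and 755 in Prox1 OE, with a log2 fold change of 0.59 ± 0.16 (SE, adjusted p in limma 0.031). Oas1a, a synthetase of 2′-5′ oligoadenylates that activate RNase L, had 435 and 387 in Control and 534, 549.9 and 647 in Prox1 OE. The groups did not overlap, and its log2 fold change of 0.49 ± 0.16 (SE, adjusted p in limma 0.0496) was the called value nearest to the threshold. Mx2, a dynamin-like GTPase gene annotated as a polymorphic pseudogene, had 85.4 and 108 in Control and 159.5, 199 and 245 in Prox1 OE, with a log2 fold change of 1.04 ± 0.25 (SE, adjusted p in limma 0.020).

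The other effectors did not pass. Mx1, with few reads and Control values of 107 and 56.8, had 174, 112 and 159.7 in Prox1 OE and a log2 fold change of 0.90 ± 0.34 (SE, adjusted p in limma 0.077), which was 0.45 without Control replicate 2 and 1.35 without Control replicate 1. Both Mx genes are defective in common laboratory strains such as C57BL/6. Ifit1, Rsad2 (viperin), Oasl2 and Ifit2 overlapped between the groups, at 0.48, 0.27, -0.02 and -0.17 on the log2 scale, with limma adjusted p-values of 0.11 to 0.94. The 3 IFIT genes, which are neighbours on chr19, thus spanned -0.17 to 0.89, a spread that was not tested between them.

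The interferon-inducible GTPases had 4 of 7 genes higher and 6 of 7 not overlapping, beside the same 17.1% and 30.9%. Iigp1, an immunity-related GTPase, had 2516 and 3054 normalised counts in Control and 4883, 5574 and 9042 in Prox1 OE. Replicate 3 stood well above the other Prox1 OE libraries, and the log2 fold change was 1.18 ± 0.25 (SE, adjusted p in limma 0.013). Igtp (ENSMUSG00000078853, chr11:58199556-58207591, plus strand), also called Irgm3, had 1148 and 1045 in Control and 1719, 2069.7 and 2430.4 in Prox1 OE, with a log2 fold change of 0.91 ± 0.16 (SE, adjusted p in limma 0.0068). Irgm1, a regulatory member of the same family, had 2668 and 2607 in Control and 3379, 3376 and 4324 in Prox1 OE, and its log2 fold change was 0.48 ± 0.14 (SE, adjusted p in limma 0.037). Gbp3, a guanylate-binding protein gene, had 366 and 319 in Control and 536, 537 and 792 in Prox1 OE. The groups were apart, with a log2 fold change of 0.84 ± 0.21 (SE, adjusted p in limma 0.022).

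The other 3 GTPase genes did not pass. Gbp2 and Gbp7 lie in 1 cluster on chr3 with Gbp3, and their log2 fold changes were 0.50 (adjusted p in limma 0.093) for Gbp2 and 0.09 (adjusted p in limma 0.79) for Gbp7, while Gbp2b of the same cluster, which is not among the 38, was called higher. Irgm2 overlaps Igtp on the same strand over 7974 bases, of which 162 are exonic in both, so that some reads could not be assigned to one of them with certainty. It had 1904 and 1782 normalised counts in Control and 1999.99, 1965 and 2393 in Prox1 OE, without overlap and with a small difference.

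None of the 3 genes of the PARP9-DTX3L module passed, and all 3 overlapped between the groups. Among all genes 17.1% were called higher and 30.9% had every Prox1 OE value above both Control values. With 3 genes, no call is near that share. PARP9 and DTX3L form a complex that adds ubiquitin and ADP-ribose, and PARP14 is a related ADP-ribosyltransferase. Parp9 had 2499 and 2192 normalised counts in Control and 2694, 2452 and 2875 in Prox1 OE, with a log2 fold change of 0.19 ± 0.12 (SE, adjusted p in limma 0.27). Dtx3l had 1691 and 1778 in Control and 2152, 1660.2 and 2150.3 in Prox1 OE, where replicate 2 was below both Control libraries, and the value was 0.19 ± 0.15 (SE, adjusted p in limma 0.36). Parp14 was at -0.0020 (adjusted p in limma 0.99). Parp9 and Dtx3l are divergent genes that share 458 exonic bases on opposite strands, and whether the counting used the strand was not stated.

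Of the 7 other induced genes, 1 was higher and 4 did not overlap, beside 17.1% and 30.9% of all genes. Ifi27, a small mitochondrial membrane protein gene, had 7979 and 8249 normalised counts in Control and 10281, 11566 and 13074 in Prox1 OE. The replicates of both groups were close together, and the log2 fold change was 0.51 ± 0.14 (SE, adjusted p in limma 0.025). Ifi44 had 237 and 221 in Control and 274, 294 and 503 in Prox1 OE, with replicate 3 far above the others, and 0.58 ± 0.28 (SE, adjusted p in limma 0.14) did not pass. Sp100, a component of PML nuclear bodies, had 711 and 627 in Control and 961, 811 and 1182 in Prox1 OE, and its log2 fold change of 0.54 ± 0.18 (SE, adjusted p in limma 0.054) was the uncalled value nearest to the threshold. It passed in 5 of the 16 alternative fits. Xaf1, Rtp4, Ifi35 and Trim30a ran from 0.23 to 0.45, with limma adjusted p-values of 0.10 to 0.38.

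Compared per kilobase of exon, the genes' levels covered a wide range. In Control, Bst2 led with a mean of 6486 normalised counts per kilobase, followed by Ifi27 with 5531, Ifi35 with 1577 and Isg15 with 1167. The same 4 genes led in Prox1 OE in the same order, at 15920.2, 7935, 2013 and 1860.3 normalised counts per kilobase. Mx1 was the lowest in both groups, at 21.6 and 39.2. Iigp1 moved from rank 9 to rank 5. Together the 38 genes summed to 54073 and 52526 normalised counts in Control and to 70467, 76079 and 97033 in Prox1 OE replicates 1, 2 and 3, which is a ratio of group means of 1.52. As a share of all normalised counts of a library, the sum was 0.125% and 0.115% in Control and 0.123%, 0.132% and 0.148% in Prox1 OE. On that scale Prox1 OE replicate 1 lay between the Control libraries, and the ratio of group means was 1.12. Bst2, Ifi27 and Iigp1 made up 31.4% of the Control sum, and the ratio of the summed normalised counts was 1.33 without them.

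The spread within groups was described next. The median SD between the Control libraries was 0.13 on the log2 scale for the 38 genes and 0.10 for all genes, and between the Prox1 OE libraries it was 0.26 and 0.22. Control replicate 1 was above Control replicate 2 in 30 of the 38 genes (78.9%), against 46.5% of all genes. Prox1 OE replicate 3 was the highest of the Prox1 OE libraries in 30 of the 38 (78.9%, against 34.5% of all genes), replicate 1 in 6 and replicate 2 in 2. Among the 15 called genes, replicate 3 was the highest in 14, with Zbp1 as the exception by a small margin. The median difference from the Control mean was 0.34, 0.39 and 0.72 on the log2 scale in Prox1 OE replicates 1, 2 and 3. Replicate 1 was the lowest of the Prox1 OE libraries in 21 of the 38 and replicate 2 in 16, beside 35.4% and 32.6% of all genes, and among the 15 called genes replicate 1 was the lowest in 12. Replicate 3, where these genes had the highest median, held the least Prox1 of the 3 libraries, which is a description only.

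The rest of the pathway was read next, from the ligands inward. Of 18 ligands, receptors and kinases, 9 could be tested, with 1 higher and 1 lower, beside 17.1% and 16.2% of all genes, and a median log2 fold change of -0.16. The ligand genes Ifnb1, Ifna1, Ifna2, Ifna4, Ifne, Ifnl2 and Ifnl3 had 0 reads in every library, which allows up to 3 reads, or 2.46 to 3.54 normalised counts, in each. Ifng had 0 to 5 reads per library and Ifnk 0 to 6, both too low to test. Transcripts of these interferons were thus not detectable, or nearly so, at this depth. The kinase gene Tyk2 was higher in the deposited scaling, though at -0.065 with total-count scaling, with 1407 and 1541 normalised counts in Control, 1968, 1810.1 and 1921 in Prox1 OE and a log2 fold change of 0.37 (adjusted p in limma 0.044). The interferon gamma receptor gene Ifngr1 was lower, with 3539 and 3411 in Control, 2635, 2742 and 2620.2 in Prox1 OE and -0.38 (adjusted p in limma 0.028). The type I receptor genes Ifnar1 and Ifnar2 were at -0.16 (adjusted p in limma 0.33) and 0.38 (adjusted p in limma 0.053).

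Of the 14 upstream sensors and adaptors, 3 were higher and 4 lower, with a median log2 fold change of 0.10. Of all genes 17.1% were called higher and 16.2% lower. The higher genes were Mavs, the mitochondrial adaptor of RIG-I and MDA5, at 0.59 (adjusted p in limma 0.0088), the factor gene Irf3 at 0.59 (adjusted p in limma 0.014), and Unc93b1, a chaperone of endosomal Toll-like receptors, at 0.58 (adjusted p in limma 0.013). The lower genes were Tmem173, which encodes the DNA-sensing adaptor STING, at -0.72 (adjusted p in limma 0.016), Cgas, the DNA sensor upstream of it, at -0.70 (adjusted p in limma 0.032), Traf3 at -0.55 (adjusted p in limma 0.032) and Tlr3 at -0.44 (adjusted p in limma 0.043). For Tmem173 the values were 1269 and 1304 normalised counts in Control and 903, 815 and 647 in Prox1 OE, with no overlap.

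Of 12 response factors and brakes, 1 was higher and 2 were lower, beside 17.1% and 16.2% of all genes, with a median log2 fold change of 0.02. Socs1, an inhibitor of JAK kinases, had 127 and 156 normalised counts in Control and 70.6, 72.0 and 74.1 in Prox1 OE, and was lower at -0.95 (adjusted p in limma 0.019). Stat3 was lower at -0.42 (adjusted p in limma 0.024) and the phosphatase gene Ptpn6 higher at 0.58 (adjusted p in limma 0.011). Irf1, a factor induced by interferon gamma, was at 0.11 (adjusted p in limma 0.56).

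A further 69 interferon-induced genes outside the 38 were listed, of which 67 could be tested. Of these, 19 were higher and 3 lower, beside 17.1% and 16.2% of all genes, and the median was 0.41. In 41 every Prox1 OE value was above both Control values, as it was for 30.9% of all genes. Cxcl9, a chemokine induced by interferon gamma that attracts T cells, had 315 and 238 normalised counts in Control and 1055, 1302 and 2117 in Prox1 OE, with 2.38 (adjusted p in limma 0.0027). Cxcl10, a related chemokine, was at -0.27 (adjusted p in limma 0.36) with overlapping groups. Gbp2b and Gbp10 had the changes 2.69 (adjusted p in limma 0.0041) and 2.22 (adjusted p in limma 0.0029) at low counts, with Control values of 4.93 and 10.2 and of 44.4 and 31.4 normalised counts. Ube2l6, the conjugating enzyme of ISG15, was higher at 1.18 (adjusted p in limma 0.0025), and B2m, the light chain of MHC class I, at 0.79 (adjusted p in limma 0.025). The lower genes were Shisa5 at -1.13 (adjusted p in limma 0.0033), Slfn9 at -0.70 (adjusted p in limma 0.023) and Pml at -0.47 (adjusted p in limma 0.016). With libraries scaled by total count, 9 of the 67 genes were higher and 11 lower with a median of -0.024, and of the other 3 lists 0 genes were higher and 6, 6 and 5 lower, beside 8.62% of all genes higher and 39.9% lower.

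**Figure D4:**
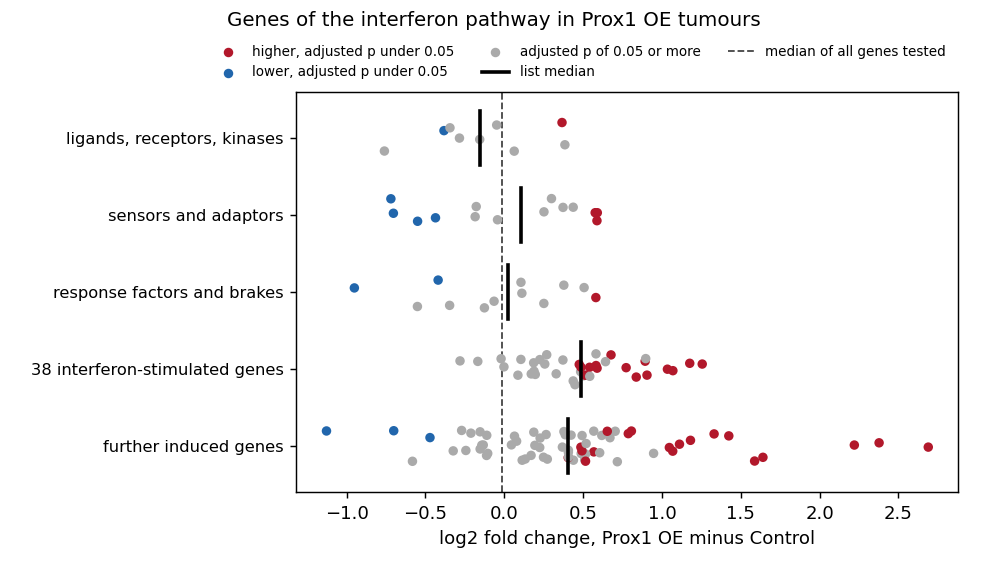
Log2 fold change, Prox1 OE minus Control, of each tested gene of 5 lists of the interferon pathway, with the list median as a black bar and the median of all genes tested as a dashed line (vertical position within a list has no meaning). The medians are -0.16, 0.10, 0.02, 0.49 and 0.41 from top to bottom; under scaling by total count the median of all genes falls to -0.44 and the median of the 38 genes to 0.055.

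Markers of other cell types moved between the groups as well. In bulk RNA, fewer cells of a type and less RNA per cell cannot be told apart. Of 8 hepatocyte markers, 7 were higher, and their sum was 755891 to 1184185 normalised counts in Control and 2416538 to 3782612 in Prox1 OE, with the highest value in Prox1 OE replicate 3 for 7 of the 8. Of 7 cholangiocyte markers, 6 were lower, and so were all 4 proliferation markers. Among all genes 17.1% were called higher and 16.2% lower. Of 8 Kupffer cell and macrophage markers, 3 were higher (Clec4f, Vsig4 and Cd5l), with a sum of 11308 to 13731 in Control and 20959 to 30841 in Prox1 OE, and replicate 3 was the highest in 5 of the 8.

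Markers of immune cells were read in the same way, beside the 17.1% of all genes called higher and the 16.2% called lower. Of 4 pan-leukocyte markers, Cd52 was higher, with a sum of 4909 to 6366 normalised counts in Control and 7348 to 8793 in Prox1 OE. Of 8 T and NK cell markers tested, 6 were higher at low counts. The 9 markers listed had a sum of 178 to 233 in Control and 429 to 617 in Prox1 OE, and Cd8a had 32.0 and 19.5 in Control and 60.3, 149.9 and 109 in Prox1 OE. The 4 markers of plasmacytoid dendritic cells, the main producers of type I interferon, summed to 33.9 to 55.9 in Control and 100.2 to 120.4 in Prox1 OE, with Siglech higher. Of 5 dendritic cell markers 1 was higher, of 5 B and plasma cell markers tested 1, and of 6 monocyte and neutrophil markers tested 0. Such counts of 1 in 5 lie near the share of all genes. Of 5 endothelial markers 1, Stab2, was higher and 0 were called lower, with a median log2 fold change of -0.27. Every Prox1 OE value lay above both Control values in 2 of these markers and below both in 2 others. Of 4 erythroid markers 0 were called, and of 5 stellate cell and fibroblast markers 1 was higher and 2 lower. No marker of these lists was at 0 reads in every library. Prox1 OE replicate 3 was the highest Prox1 OE library for 100% of the tested endothelial and erythroid markers. It was so for 80% of dendritic and 75% of plasmacytoid dendritic cell markers, beside 34.5% of all genes. In the other lists of this paragraph it was so for 50% of markers or fewer. Scaled by total count, 7 hepatocyte, 2 Kupffer cell and macrophage and 4 T and NK cell markers were higher, 7 cholangiocyte and 4 proliferation markers lower, and 0 leukocyte, dendritic, plasmacytoid or B cell markers were called. Of the endothelial markers 1 was then higher and 3 lower, and of the stellate cell and fibroblast markers 1 was higher and 3 lower. Under that scaling 8.62% of all genes were called higher and 39.9% lower. The part of these shifts in the values of the interferon-stimulated genes was not tested.

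**Figure D5:**
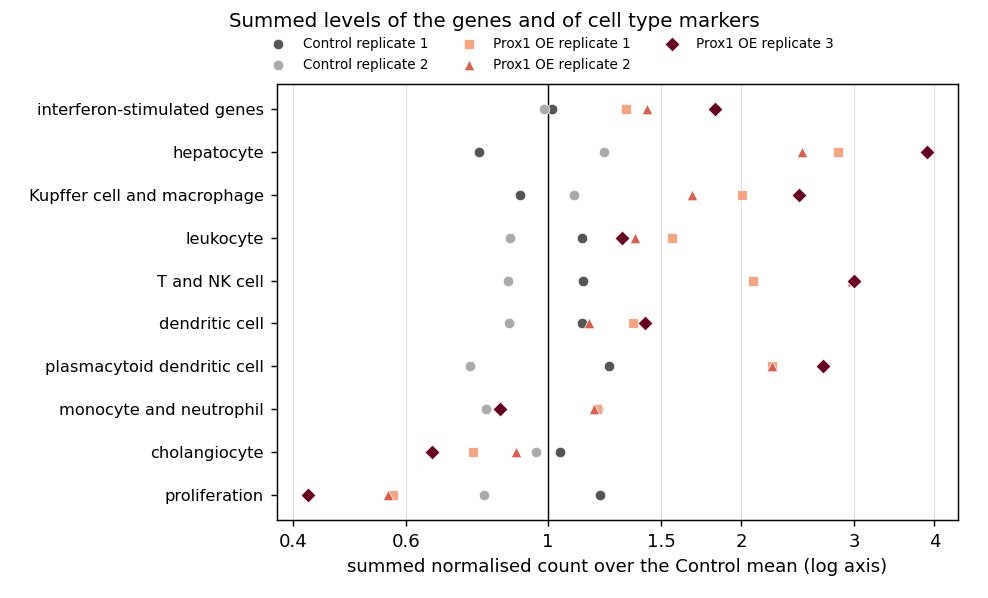
Summed normalised count of the 38 interferon-stimulated genes and of marker lists in each library, divided by the mean of the 2 Control libraries (log axis, 1 marks the Control mean). The sum of the 38 genes, 70467 to 97033 in Prox1 OE, lies above both Control libraries in every Prox1 OE library under the deposited scaling. So do the sums of hepatocyte, Kupffer cell, leukocyte, T and NK cell, dendritic and plasmacytoid dendritic cell markers. Monocyte and neutrophil sums overlap between the groups, while cholangiocyte and proliferation sums lie below.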

How the data were processed

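Bulk RNA was measured in 5 libraries. The authors prepared strand-preserving dUTP libraries, sequenced them as read pairs, mapped them to mm10 with STAR and divided reads per gene by DESeq2 size factors, and they deposited the resulting signal values as normalised counts for 55397 genes. The counting tool and its use of strand are not given in the sources used here. Their own comparison (mean, fold change and p-values) was also deposited and was not used. No column of values was left unassigned (0 columns). The values were whole multiples of what 1 read was worth (100% within 0.01 reads), so that reads and library totals were recovered. Intervals were not computed, and the limit of 3 reads behind a count of 0 covers counting error only.

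Groups came from the labels. log2(normalised count + 1) was fitted with limma 3.58.1 in R 4.3.3 (lmFit, eBayes with trend, two-sided, no covariate) over 17105 genes averaging 10 or more, and p-values were adjusted by Benjamini-Hochberg and called under 0.05. This pseudocount understates changes of low genes. GENCODE gene models of GRCm38, the sequence of mm10, matched 99.5% of identifiers. Replicates were distinct, since the chi-square per degree of freedom of their reads was 39.6 or more in every pair. The fit was tested on simulated data. The 38 members and all lists were chosen with earlier results of these data known. Values in every library are given for each called member, for Stat2, Irf9, Irf7 and Isg15, and for the 2 members of each role with the largest absolute change. 1 gene of the response factors and brakes is not reported here. Ifit3b, Cxcl10 and the pathway genes named outside the members were picked with their values in view. Alternatives were other scalings, pseudocounts, filters, limma without trend, edgeR 4.0.16 and DESeq2 1.42.0 on recovered reads, a replicate block and each library left out. The same replicate numbers in both groups were not tied to a litter or day by the labels.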

Additional observations from a re-analysis of the deposited data

How the results depend on the processing

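All 15 called genes kept a positive log2 fold change under each of the 16 alternatives to the fit. Every Prox1 OE value of these 15 lay above both Control values. Leaving out a library, the replicate block, the pseudocounts, the filters and the trend setting could therefore not turn the sign. The number of the 38 genes called higher was 14 to 17 with TMM or upper-quartile factors, pseudocounts of 0.1 or 10, a mean of at least 50, edgeR and DESeq2, 10 with no filter and 7 with limma without the trend, beside 8.41% and 13.4% of all genes. Scaling by total count gave 4 higher and 3 lower with a median of 0.055, and 1475 higher and 6833 lower among all genes, whose median fell to -0.44. It turned 11 uncalled genes negative, Irf9 (-0.26), Ifih1 (-0.17), Ddx58 (-0.33), Rsad2 (-0.16), Gbp7 (-0.34), Irgm2 (-0.23), Parp9 (-0.24), Dtx3l (-0.24), Rtp4 (-0.059), Trim30a (-0.20) and Ifi35 (-0.10). Measured from the median of all genes under that scaling, these 11 were at 0.10 to 0.38. Those distances nearly repeat the values of the main fit, because the scaling moves all genes nearly alike, and are not a separate check.

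With 1 library left out in turn, 0 to 19 genes were called higher and 0 to 1 lower (Eif2ak2, without Prox1 OE replicate 1), and among all genes 681 to 3738 higher and 477 to 3753 lower. The count was 0 without Control replicate 1, 3 without Control replicate 2, and 8 without either Prox1 OE replicate 2 or Prox1 OE replicate 3. With 1 Control library left, it is assumed to vary like the others. Of the 15 called genes, 7 stayed called without each Prox1 OE library in turn (Irf7, Dhx58, Ifit3, Bst2, Gbp3, Igtp and Iigp1). Genes near 0 changed sign, with ranges of -0.049 to 0.26 for Ddx58, -0.12 to 0.11 for Oasl2, -0.031 to 0.25 for Gbp7 and -0.12 to 0.086 for Parp14. Parp14 was also 0.015 with TMM factors, 0.023 with edgeR and 0.013 with DESeq2, and Oasl2 was 0.0052 with edgeR. Over single genes and alternatives, 498 values kept side and direction, 71 fell short of the threshold, 15 passed it and 24 changed sign. The strict GAS was in 4 genes.

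The replicate block used replicates 1 and 2 of both groups and so dropped Prox1 OE replicate 3. It called 12 of the 38 genes higher, of which 11 were shared with the fit without it, beside 15.6% of all genes, with a median of 0.35 and Gbp7 at -0.012. Deviations of same-numbered libraries correlated at 0.14 and 0.02 over genes, with only 2 pairs.

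The 38 genes had 67 to 16363 reads per gene and library, and the groups only 2 and 3 libraries, which limits the precision of every call.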
